A study of Mus musculus with 6 samples.

Results

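The 3 control libraries of 4T1 cells, out of 6 RNA sequencing libraries in the series, are described here by the level of every gene, with no contrast to the other libraries. 4T1 is a transplantable mouse mammary tumour line, first grown from a mammary tumour of a BALB/c mouse. The series set wild-type 4T1 cells beside cells without Carmil3, a protein that binds actin capping protein, and only the wild-type columns were used. The control cells are labelled wild type, and the labels name no engineered allele, vector or agent for them. They were grown in plates in serum-containing DMEM with antibiotics. All 23644 listed genes were ranked by their mean FPKM, which is reads or fragments scaled by exon length and by library depth. The length that gave whole reads for most low values covers all annotated exons of a gene together. Ranks and ratios between genes rest on that length. The labels do not say whether the 3 libraries came from separate cultures, or whether the control cells were an uncloned population. The spread between libraries is therefore the spread between these samples and may be technical, and no test between groups was made.

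Mammary epithelium has an inner luminal layer, marked by keratins 8 and 18, and an outer basal or myoepithelial layer, marked by keratins 5 and 14, p63 and smooth muscle actin. Carcinoma cells can also carry mesenchymal proteins such as vimentin, driven by the factors of the epithelial-mesenchymal transition (EMT) of the Snail, Twist and Zeb families. The 4T1 line is used because it spreads to distant organs after transplantation and secretes factors that act on myeloid cells.

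Read totals worked out from the step between values came to 18183056, 17779129 and 18719087 for replicates 1, 2 and 3. They are approximate, because the reads over listed genes came to between 108.7% and 108.8% of them. A value of 0 therefore allows, by 3 reads, up to 0.0287 FPKM for a gene with long exons such as Elf5 and up to 0.225 FPKM for a short one such as Ifnb1; these limits cover counting error only. Every listed gene was above 0 in at least 1 of the 6 libraries of the series. Genes outside the list were not analysed here, so counts of silent genes cover only the list.

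A mean of at least 1 FPKM was reached by 11042 genes, 46.7% of those listed, and these held 99.3% of the summed FPKM. In single libraries 11089, 11070 and 11038 genes reached 1 FPKM, so the replicates differed little in this count. Of 15345 protein-coding genes 9994 reached that level (65.1%). The median listed gene had 0.659 FPKM, 5010 genes reached 10 FPKM, 388 reached 100 FPKM and 12 reached 1000 FPKM. A value of 0 in all 3 libraries was found for 1953 listed genes (8.26%), among them 703 protein-coding genes. The pool was concentrated: 503 genes held 50% of the summed FPKM, and the 100 most abundant held 29.7% ± 0.187 (SD, n = 3). Of that 100, 28 encode cytosolic ribosomal proteins and 9 lie on the mitochondrial genome.

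The most abundant transcript was mt-Nd1, a subunit of respiratory complex I, with 6500.0, 7055 and 6007 FPKM in replicates 1, 2 and 3. It was followed by mt-Co1 (5888 ± 121 FPKM, SD, n = 3 here and below), a subunit of cytochrome oxidase, and mt-Cytb (4226 ± 264 FPKM). The highest nuclear gene was Lgals1 (ENSMUSG00000068220, chr15:78926725-78930465, GRCm38), which encodes the secreted sugar-binding protein galectin-1. Its levels were 4179, 4096 and 4314 FPKM, so every library lay above the translation factor Eef1a1 (3858, 3732 and 4011 FPKM) measured in the same library. The next nuclear genes were Fth1, the ferritin heavy chain (2352 ± 179 FPKM), Ptma, the acidic nuclear protein prothymosin (2059 ± 81 FPKM), and Rplp1, a protein of the ribosomal stalk (1625, 1693 and 1573 FPKM). The chaperone gene Hsp90ab1 had 1500.0 ± 19.99 FPKM, the cytoplasmic actin gene Actb 1061 ± 44.2 FPKM, and the nucleolar gene Npm1 1031 ± 27.6 FPKM. The remaining positions to rank 30 were mostly ribosomal and mitochondrial genes. The exceptions with a given symbol were Spp1 (osteopontin), Eef2, S100a6, Actg1 and B2m, all between 759 and 887 FPKM.

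**Figure D1:**
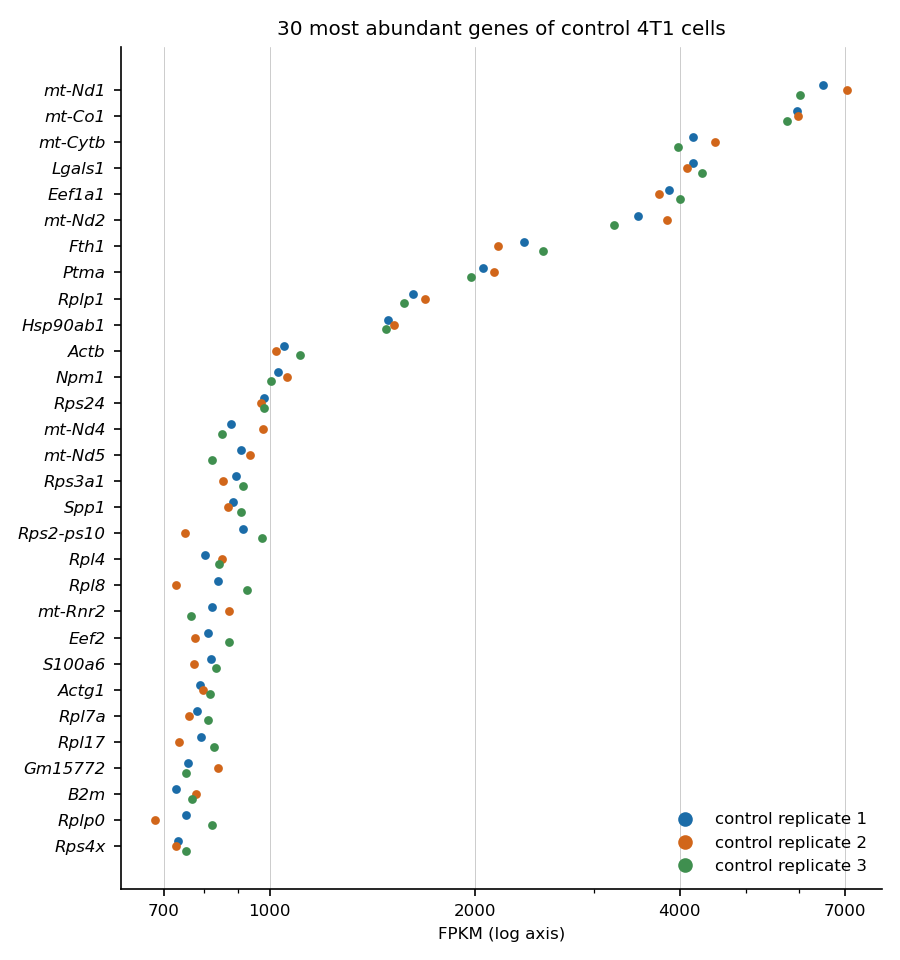
FPKM of the 30 most abundant genes (log axis), 1 point per control library. The mitochondrial genes near the top are highest in replicate 2, as in mt-Nd1 at 7055 FPKM, while Lgals1 and Eef1a1 are highest in replicate 3.

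Genes of the mitochondrial genome held 8.33% ± 0.569 of the summed FPKM, with 8.32%, 8.90% and 7.76% in replicates 1 to 3. Within this genome the protein-coding genes fell into 2 sets far apart. mt-Nd1, mt-Nd2, mt-Nd4, mt-Nd5, mt-Nd6, mt-Co1 and mt-Cytb were all abundant, with mt-Nd6 the lowest at 588 ± 14.1 FPKM. The other 6 were low: mt-Nd3 had 28 FPKM, mt-Atp8 6.49, mt-Atp6 5.5, mt-Co2 3.09, mt-Co3 1.05 and mt-Nd4l 0.05996. The mean of mt-Co1 was 1903 times that of mt-Co2, although both encode subunits of the same enzyme. Nuclear copies of mitochondrial sequence that share reads with their source make such values uncertain. The annotation places 6 of them side by side on chromosome 1, chosen after their values were seen, where Gm28438 had 40.3 ± 9.57 FPKM and the other 5 had between 0.116 and 1.10 FPKM. The handling of reads that match several places was not given in the sources used here.

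Cytosolic ribosomal protein genes held 8.81% ± 0.358 of the summed FPKM, with a median of 220.4 FPKM over 83 listed genes. Rplp1, Rps24 (977 ± 5.88 FPKM), Rps3a1 (887 ± 30.9 FPKM) and Rpl4 (832 ± 24.5 FPKM) led them. The low members included Rpl24 at 0.321 ± 0.1004 FPKM, Rpl13a at 6.59 ± 0.943 FPKM and Rps18 at 25.6 ± 2.71 FPKM, although a ribosome holds its proteins in near-equal numbers. This family has many processed pseudogenes of near-identical sequence, so its single values are uncertain. The annotated pseudogene Rps2-ps10 had 879.7 ± 116 FPKM against 140.2 ± 12.6 FPKM for its parent Rps2, and Rpl3-ps1 had 269 FPKM against 269.9 FPKM for Rpl3.

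Many ribosomal protein genes start inside a run of pyrimidines that the cell uses to control their translation. The letters CTTTC, on the coding strand and between 10 bases before and 20 after the annotated start, were present in 14 of 52 ribosomal protein genes with a single RefSeq promoter window (26.9%), and in 3.74% of all 32851 windows. A match is a description of the letters and not of a functional site. RefSeq windows (GRCm38.p6, 100 bases before the start and 20 from it) of 3 of them are shown to make the run visible, with CTTTC in capitals. Rpl7a (chr2:26910707-26910826, + strand) had 786 ± 25.6 FPKM, Rplp2 (chr7:141447551-141447670, + strand) had 158 ± 7.55 FPKM and Rpl28 (chr7:4792865-4792984, + strand) had 139 ± 18.8 FPKM.
Rpl7a: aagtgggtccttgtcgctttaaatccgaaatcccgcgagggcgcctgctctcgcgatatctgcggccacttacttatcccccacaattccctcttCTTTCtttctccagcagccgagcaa
Rplp2: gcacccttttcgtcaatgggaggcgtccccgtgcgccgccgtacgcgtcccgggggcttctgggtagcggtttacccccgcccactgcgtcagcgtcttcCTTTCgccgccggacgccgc
Rpl28: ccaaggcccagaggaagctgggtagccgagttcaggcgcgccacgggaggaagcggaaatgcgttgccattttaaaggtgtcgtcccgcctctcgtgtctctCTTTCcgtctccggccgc

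Luminal keratins and junction genes stood beside high vimentin. In the list of epithelial junction and identity genes 30 of 38 listed members reached 1 FPKM, against 46.7% of all listed genes and 65.1% of protein-coding ones. Luminal genes reached it in 7 of 14, basal genes in 5 of 16 and mesenchymal or EMT genes in 14 of 21. The lists held 38, 17, 20 and 26 symbols, and members without a row were not analysed here.

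Krt18 (ENSMUSG00000023043, chr15:102028180-102032027) and Krt8 (ENSMUSG00000049382, chr15:101996698-102004482), the paired keratins of simple epithelia, lie next to each other on chromosome 15. Krt18 had 525, 495 and 544 FPKM and Krt8 had 468, 452 and 491 FPKM. Krt18 was above Krt8 in each library, with a ratio of means of 1.11. Krt7 followed with 27.1, 26.1 and 30.5 FPKM and Krt19, another luminal keratin, with 4.83, 4.28 and 6.19 FPKM. Krt8 was 92.2 times as abundant as Krt19, and no library of the one overlapped a library of the other. Krt14, a basal keratin, had 2.81 ± 0.194 FPKM and Krt17 0.545 ± 0.209 FPKM.

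The luminal factor Gata3 had 22.6, 22.2 and 24 FPKM, and the surface protein gene Cd24a 86 ± 1.37 FPKM. The hormone receptor Esr1 stood at 0.696, 0.601 and 0.653 FPKM and its pioneer factor Foxa1 at 0.567 ± 0.0656 FPKM, both below 1 FPKM in every library. Elf5, a factor of alveolar cells, was 0 in all 3 libraries. The milk list held 11 symbols, and 6 of them had no row and were not analysed here. Of the 5 listed members 3 reached 1 FPKM (60%, against 65.1% of all listed protein-coding genes). Mfge8, a milk fat globule protein, had 53.6 ± 2.997 FPKM, Xdh 15.4 ± 0.28 FPKM and the casein gene Csn3 2.08 ± 0.189 FPKM. Btn1a1 had 0.042 FPKM and Glycam1 was 0 in all 3 libraries.

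In the basal list the members at or above 1 FPKM were the adhesion receptor Cd44 (43.4 ± 1.03 FPKM), the integrins Itga6 (28.2 ± 0.847 FPKM) and Itgb4 (5.77 ± 0.376 FPKM), Procr (21.8 ± 1.005 FPKM) and Krt14. The genes that define contractile myoepithelium were near 0. Trp63, the basal master factor, had 0.0131 FPKM, Acta2, smooth muscle actin, 0.009998 FPKM, Tagln 0.0276 FPKM and Myh11 0.011 FPKM.

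Epithelial junction and identity genes differed widely in level. The median of the 38 listed was 2.72 FPKM, and 12 of them reached 10 FPKM. The tight junction scaffold Tjp1 led with 56.9 ± 2.67 FPKM, followed by the junctional adhesion gene F11r (31.4 ± 1.25 FPKM) and the protease inhibitor gene Spint1 (30.9 ± 2.38 FPKM). Epcam had 19.7, 19.7 and 19.6 FPKM and Cdh1, which encodes E-cadherin, 12.2, 12.7 and 12.4 FPKM. Both were close to constant across libraries, with coefficients of variation (SD over mean, CV) of 0.255% and 1.97%. Claudins differed by member: Cldn3 had 22.9 FPKM, Cldn4 20.3 FPKM and Cldn7 6.83 FPKM, while Cldn1 had 0.039 FPKM. The splicing regulators Esrp1 (3.53 ± 0.33 FPKM) and Esrp2 (1.76 ± 0.329 FPKM) and the factor Grhl2 (1.37 ± 0.0626 FPKM) were between 1 and 4 FPKM, and the epithelial factor Ehf was 0 in all 3 libraries.

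Among mesenchymal genes, Vim (ENSMUSG00000026728, chr2:13573927-13582826), the intermediate filament vimentin, had 721, 684 and 758 FPKM. It stood above Krt18 in every library. The receptor kinase gene Axl (153 ± 6.4 FPKM), fibronectin Fn1 (125 ± 4.71 FPKM) and the matrix protein gene Sparc (110.2 ± 1.69 FPKM) followed. Of the EMT factors, Twist1 had 15.3, 15.4 and 17.5 FPKM, Snai1 8.72, 7.6 and 10.7 FPKM and Zeb2 5.23, 5.19 and 4.92 FPKM. Their close relatives were near 0, with Twist2 at 0.0172 FPKM and Zeb1 at 0.0109 FPKM; Zeb1 had at most 3 reads in a library. The fibrillar collagen genes differed in level, with Col5a1 at 20.03, 18.2 and 20.3 FPKM, Col1a1 at 1.5 ± 0.209 FPKM and Col1a2 at 0.00437 FPKM.

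The promoter of Vim is shown because it belongs to the few highly abundant genes with the letters TATAAA close to the start. In its RefSeq window (chr2:13574211-13574330, + strand, GRCm38.p6) TATAAA, in capitals, begins 32 bases before the annotated start.
Vim: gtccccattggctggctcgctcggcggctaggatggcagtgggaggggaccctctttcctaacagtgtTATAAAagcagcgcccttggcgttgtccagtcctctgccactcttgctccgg

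Markers of other cell types were mostly near 0. For comparison, 65.1% of all listed protein-coding genes reached 1 FPKM. Leukocyte markers reached 1 FPKM in 2 of 14 listed genes, endothelial ones in 2 of 9, fibroblast ones in 2 of 7, and erythroid, adipocyte, neuronal, hepatocyte, striated muscle and germline ones in 0 of 23 together. The summed level of the leukocyte list was 16.3 to 17.2 FPKM over the 3 libraries, of which the inflammatory protein gene S100a8 gave most with 12.4, 12.2 and 11.2 FPKM. Its usual partner S100a9 had 0.0351 FPKM, from 1 read in 1 library, and Ptprc, the CD45 gene of all leukocytes, had 0.00305 FPKM. The other leukocyte gene at or above 1 FPKM was the macrophage marker Cd68, with 3.15, 2.998 and 3.4 FPKM. The endothelial list summed to 35 to 40.5 FPKM, nearly all from the TGF-beta co-receptor Eng (31.3 ± 3.07 FPKM) and the VEGF receptor Flt1 (5.92 ± 0.385 FPKM), while Pecam1 had 0.0234 FPKM and Cdh5 0.0086 FPKM. The fibroblast list summed to 11.6 to 12.4 FPKM, mainly from the growth factor receptor Pdgfra (10.1 ± 0.135 FPKM), with Dcn at 0.0281 FPKM. Ptprc, Pecam1, Cdh5 and Dcn were thus near 0, while S100a8, Cd68, Eng, Flt1 and Pdgfra were not. Their part in the other values was not tested. Only 1 hepatocyte and 3 germline genes were listed, so those lists cover little. Of 2 protein-coding genes listed on chromosome Y, 1, annotated as Gm47283, had 32.9, 24.8 and 32.6 FPKM. None of the 8 symbols of a list of Y-linked genes had a row, so they were not analysed here. Whether the cells carry a Y chromosome was not tested. Xist, the RNA that coats the inactive X chromosome, had 0.00614, 0.0377 and 0.00894 FPKM.

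**Figure D2:**
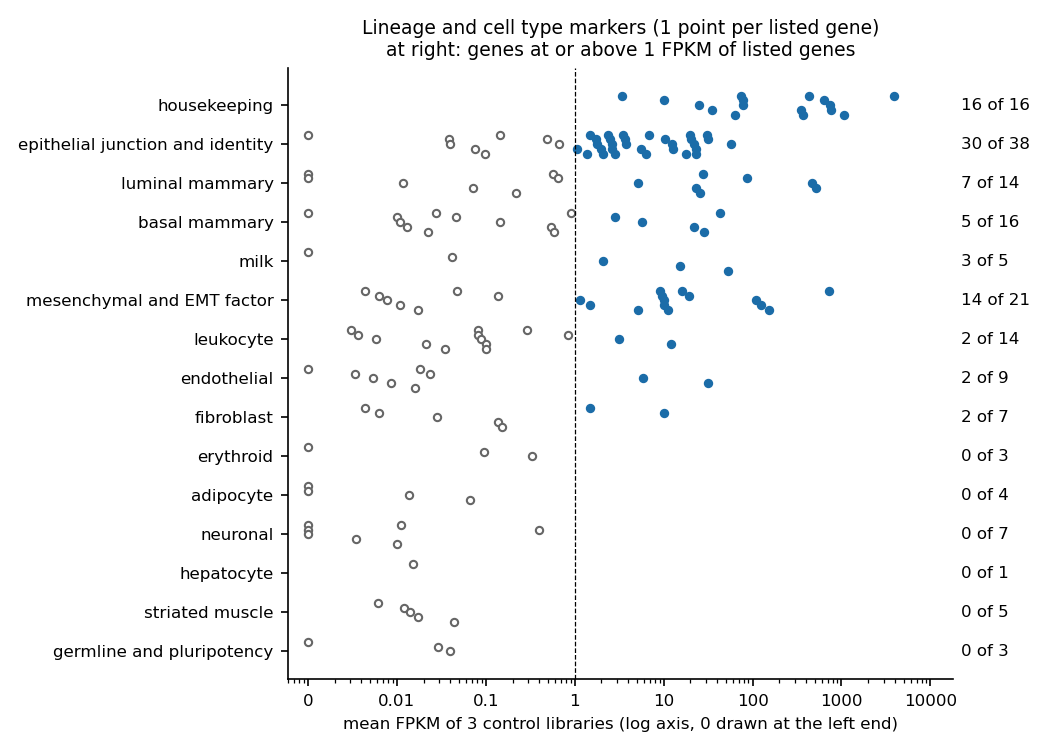
Mean FPKM of each listed marker gene in 15 lists (log axis, values of 0 drawn at the left end), filled at or above 1 FPKM and open below. Epithelial genes lie mostly to the right of the dashed line at 1 FPKM (30 of 38), leukocyte genes mostly to the left (2 of 14 above it).

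Fetal genes that tumours often express reached 1 FPKM in 5 of 9 listed members, 55.6%, a share below the 65.1% of all listed protein-coding genes. The chromatin proteins Hmga1 (179, 171 and 199.8 FPKM) and Hmga2 (43.1, 44.2 and 42.5 FPKM) led, followed by the RNA-binding protein genes Igf2bp2 (27.9 ± 0.821 FPKM) and Igf2bp1 (8.06 ± 0.384 FPKM). Igf2bp3, of the same family, had 0.0804 FPKM. Afp, the fetal serum protein, had 1.91, 1.67 and 1.6 FPKM.

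Secreted signals reached 1 FPKM in 23 of 34 listed genes (67.6%), a share near the 65.1% of all listed protein-coding genes. Spp1 (ENSMUSG00000029304, chr5:104435118-104441050), which encodes the matrix phosphoprotein osteopontin, had 884, 869 and 909 FPKM. Mif, a macrophage cytokine, had 337, 286 and 398 FPKM, and Tslp, an epithelial cytokine of type 2 immunity, 158, 157 and 152 FPKM. Tslp was nearly constant and Mif differed between libraries, lowest in replicate 2 and highest in replicate 3. The colony-stimulating factor genes ranked Csf1 (55.9 ± 0.858 FPKM), Csf3 (11.7 ± 0.359 FPKM) and Csf2 (0.114 ± 0.0396 FPKM), with no overlap between them. Csf1 drives macrophages and Csf3 granulocytes. Of the chemokines, Cxcl5 (17 ± 1.26 FPKM), Cx3cl1 (16.8 ± 1.3 FPKM) and Ccl2 (13 ± 0.492 FPKM) were highest. The inflammatory cytokines Il6 (0.0226 FPKM), Tnf (0.0555 FPKM) and Il1b (0.0967 FPKM) were near 0.

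Matrix proteases and their inhibitors reached 1 FPKM in 22 of 27 listed genes (81.5%, against 65.1% of all listed protein-coding genes). Mmp3, which encodes stromelysin-1, led with 342, 319 and 335 FPKM. The lysosomal protease gene Ctsl had 192 ± 4.77 FPKM and the urokinase gene Plau 85.5 ± 1.43 FPKM, with its receptor Plaur at 35.7 ± 3.97 FPKM. Mmp9, a gelatinase, had 33.8, 32.1 and 37.9 FPKM and Mmp14, a membrane-anchored protease, 34.1, 33.9 and 35.3 FPKM. These overlapped: Mmp9 was above Mmp14 in 1 of 3 libraries, and the means differed by less than the SD of either. Mmp3 was 9.60 times as abundant as Mmp9. Inhibitors were also abundant, Timp2 at 117 ± 2.45 FPKM and Timp1 at 72.6 ± 3.98 FPKM, while Timp4 was 0 in all 3 libraries.

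Mmp13, Mmp12, Mmp3 and Mmp10 lie within a cluster of protease genes on chromosome 9, between 7272514 and 7510240 in GRCm38, all on the + strand, and their levels lay far apart. Mmp3 (chr9:7445822-7455975) had 332 FPKM, Mmp10 (chr9:7502352-7510240) 11.4 FPKM, Mmp13 (chr9:7272514-7283331) 4.43 FPKM and Mmp12 (chr9:7344381-7369499) 0.0102 FPKM, the last from at most 2 reads in a library. Their RefSeq promoters (GRCm38.p6) are shown because they share letters despite those levels. The letters TGACTCA, searched on both strands, are known as the binding motif of AP-1, the dimer of Fos and Jun proteins. They were present in 4 of 7 listed Mmp genes with a window and in 5.20% of all windows of 300 bases. The first is a count of genes over any window, and Mmp12 has 2 windows, of which 1 matched. The match was found in the 4 genes of this cluster and not in Mmp11, Mmp14 or Mmp15. The 4 Mmp genes shown and Plaur were chosen after the match was seen. TATAAA was searched on both strands for the share of windows, 13.6% of all, and is marked on the coding strand.
Mmp3: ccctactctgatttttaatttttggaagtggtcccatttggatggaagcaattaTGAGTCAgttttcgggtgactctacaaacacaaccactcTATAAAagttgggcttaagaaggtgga
Mmp10: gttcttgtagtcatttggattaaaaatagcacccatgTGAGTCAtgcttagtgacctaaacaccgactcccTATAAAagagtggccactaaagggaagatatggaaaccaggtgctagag
Mmp13: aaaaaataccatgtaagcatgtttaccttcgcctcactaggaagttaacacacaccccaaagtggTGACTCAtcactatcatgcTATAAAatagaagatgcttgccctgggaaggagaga
Mmp12: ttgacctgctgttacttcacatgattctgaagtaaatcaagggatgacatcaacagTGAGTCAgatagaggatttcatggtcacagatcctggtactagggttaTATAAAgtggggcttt
Plaur: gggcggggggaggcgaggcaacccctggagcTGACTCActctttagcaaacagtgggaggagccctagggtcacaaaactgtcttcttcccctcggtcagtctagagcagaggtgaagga

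In these runs the capitals mark the AP-1 letters, on either strand, and TATAAA. The AP-1 letters begin 46 bases before the annotated start of Mmp3 (chr9:7445722-7445841, + strand), 63 before that of Mmp10 (chr9:7502242-7502361, + strand), 35 before that of Mmp13 (chr9:7272414-7272533, + strand) and 44 before 1 of the 2 starts of Mmp12 (chr9:7347274-7347393, + strand). Plaur (chr7:24462383-24462502, + strand) has them 69 bases before its start and no TATAAA on the coding strand. The letters TATAAA begin 7, 29 and 16 bases before the starts of Mmp3, Mmp10 and Mmp13. In Mmp12 they begin 4 bases after that start. Of the AP-1 genes, Fosl1 had 55.4, 50.7 and 57.1 FPKM, Jun 17.8, 16.2 and 19.5 FPKM and Junb 14.5, 13.8 and 16.6 FPKM. Fos itself had 0.678, 0.67 and 0.681 FPKM, below 1 FPKM in every library. Whether AP-1 occupies these promoters was not measured.

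**Figure D3:**
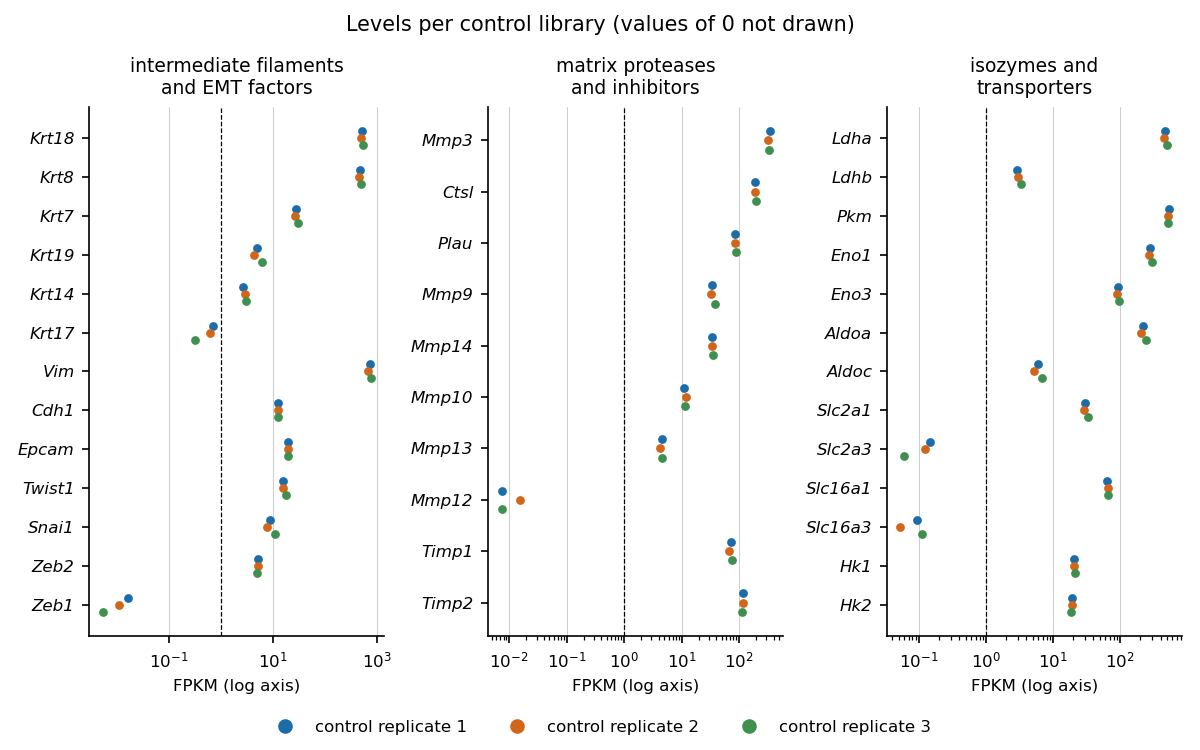
FPKM in each control library (log axis) of filament and EMT genes, matrix proteases, and glycolytic isozymes; the dashed line marks 1 FPKM. Zeb1, Mmp12, Slc2a3 and Slc16a3 lie below the line in every library, far from their relatives Zeb2, Mmp3, Slc2a1 and Slc16a1.

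Genes of dividing cells were abundant. In the cell cycle list 23 of 25 listed genes reached 1 FPKM (92%, against 65.1% of all listed protein-coding genes). The replication clamp Pcna had 219, 229 and 226 FPKM, topoisomerase Top2a 208, 222 and 200.4 FPKM and the proliferation marker Mki67 97.5, 99.7 and 89.3 FPKM. Cyclin D1, Ccnd1, had 179, 178 and 176 FPKM and was 26.5 times as abundant as Ccnd3. Myc had 40.5, 36.7 and 41.6 FPKM, while its relatives Mycn (0.134 FPKM) and Mycl (0.248 FPKM) were low. Trp53 had 10.6, 11.3 and 11.3 FPKM and its target Cdkn1a, a cell cycle inhibitor, 3.83, 4.25 and 4.16 FPKM; transcript levels do not show whether the protein is intact. Of 12 listed tumour suppressors and oncogenes 12 reached 1 FPKM (100%, against the same 65.1%). They ranged from Braf at 3.1 ± 0.165 FPKM to Smad4 at 39.997 ± 0.909 FPKM.

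Receptor tyrosine kinases reached 1 FPKM in 17 of 24 listed genes (70.8%, against 65.1% of all listed protein-coding genes). Axl (152, 147 and 159 FPKM) stood far above the next, Epha2 (46, 39.7 and 48.1 FPKM), and was 21.6 times as abundant as its relative Tyro3. Ddr2, a collagen receptor, had 33.5 ± 1.91 FPKM and Met, the receptor of hepatocyte growth factor, 27.4 ± 0.909 FPKM. Of the EGF receptor family, Erbb2 had 9.45, 9.71 and 10.5 FPKM, Erbb3 1.04, 0.972 and 1.13 FPKM and Egfr 0.976, 0.978 and 0.802 FPKM. Erbb2 thus exceeded the other 2 in every library, and Egfr lay below 1 FPKM in each. Nuclear receptors reached 1 FPKM in 10 of 17 listed genes (58.8%), a share below that 65.1%. They were led by the glucocorticoid receptor Nr3c1 (21.5, 23.4 and 20.6 FPKM) and by Rxra (14.2 ± 0.357 FPKM), the partner of many others. The oestrogen receptors Esr1 and Esr2 (0.201 FPKM) were below 1 FPKM.

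Integrin subunits reached 1 FPKM in 13 of 23 listed genes (56.5%), a share below the 65.1% of all listed protein-coding genes. The shared beta subunit Itgb1 had 252, 263 and 241 FPKM and Itga3, the alpha subunit of a laminin receptor, 214, 206 and 230.5 FPKM. Both stood well above Itgav (38.6 ± 3.11 FPKM) and Itga6. Itgb2 (26.1, 24.9 and 29.9 FPKM) and Itgb7 (10.6, 10.3 and 13.3 FPKM), known mainly as leukocyte integrin subunits, were above 10 FPKM, while Itgal (0.0137 FPKM) and Itgam (0.00365 FPKM), which encode alpha partners of Itgb2, were near 0. In the matrix list 15 of 27 listed genes reached 1 FPKM (55.6%), also below 65.1%. Col4a1 (102 ± 4.06 FPKM), Lama5 (86.5 ± 6.5 FPKM), Lamc1 (73.6 ± 1.38 FPKM) and Lamb1 (57.3 ± 1.82 FPKM), chains of collagen IV and of laminin, were abundant, and Lama2 (0.00563 FPKM) and Lama4 (0.00759 FPKM) were near 0.

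Cytoskeletal genes reached 1 FPKM in 33 of 42 listed genes (78.6%, against 65.1% of all listed protein-coding genes). Of these, 17 were at or above 100 FPKM. Actb was 1.32 times as abundant as Actg1, and the muscle actins Acta1 (0.0119 FPKM) and Acta2 were near 0. Tubulins were led by Tuba1b (684 ± 36.7 FPKM) and Tubb5 (613 ± 28.6 FPKM), with the neuronal Tubb3 at 0.01004 FPKM. Thymosin Tmsb10, which binds actin monomers, had 159, 121 and 189 FPKM and varied most in this group among genes above 10 FPKM. The gene knocked out in the other cells of the series, Carmil3 (ENSMUSG00000022211, chr14:55490651-55508272), had 0.036, 0.0246 and 0.0117 FPKM in these control cells, from 4, 3 and 1 reads. That is at or near the level that 3 reads give, 0.0261 FPKM. Its relative Carmil1 had 3.68, 3.62 and 3.85 FPKM and Carmil2 0.0867 ± 0.0231 FPKM. The subunits of capping protein, which CARMIL proteins bind, were Capza1 at 70.6 ± 1.8 FPKM, Capzb at 52.8 ± 2.07 FPKM and Capza2 at 37.2 ± 0.584 FPKM.

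At several steps of glycolysis 1 isozyme stood far above the others. In the list 23 of 31 listed genes reached 1 FPKM (74.2%, against 65.1% of all listed protein-coding genes). Pkm, a pyruvate kinase gene, had 527, 518 and 516 FPKM. Ldha, the lactate dehydrogenase subunit that favours lactate, had 465, 449 and 491 FPKM. Ldha was 151 times as abundant as Ldhb (2.91, 3.05 and 3.33 FPKM) and Aldoa 37.4 times as abundant as Aldoc. The glucose transporter Slc2a1 had 30.04, 29.1 and 33.2 FPKM against 0.144, 0.124 and 0.059 FPKM for Slc2a3. The lactate transporter Slc16a1 had 63.9, 65.5 and 66.1 FPKM against 0.0931, 0.0529 and 0.11 FPKM for Slc16a3. Other steps had no such gap. The hexokinase Hk1 had 20.5, 20.4 and 21.2 FPKM and Hk2 19, 19 and 18.6 FPKM, a ratio of 1.10. The phosphofructokinase genes Pfkl (46.6 ± 4.11 FPKM), Pfkm (22 ± 0.93 FPKM) and Pfkp (15.4 ± 0.361 FPKM) were also within a few fold of each other, with Pfkl 2.12 times as abundant as Pfkm. Eno3, the enolase of muscle, had 94, 90.9 and 96.3 FPKM, below Eno1 at 282 ± 13.2 FPKM. In replicate 1 Eno3 had 2971 reads over 1739 exon bases and Eno1 27192 reads over 5379, so the gap was wider in reads.

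Hypoxia genes reached 1 FPKM in 13 of 13 listed members (100%, against 65.1% of all listed protein-coding genes). The oxygen sensor Egln3 led them (76.4, 74.1 and 79.8 FPKM), with Car9 at 2.52 ± 0.187 FPKM. Cholesterol genes reached 1 FPKM in 21 of 21 (100%, against the same 65.1%), led by Idi1 (66.6 ± 3.35 FPKM) and Hmgcs1 (64.3 ± 4.52 FPKM). Fdps, an enzyme of the same path, had only 1.18, 1.39 and 1.42 FPKM and has near-identical pseudogenes, so its value is uncertain. Stress genes reached 1 FPKM in 10 of 10 (100%, again against 65.1%). The chaperone Hspa5 had 693, 702 and 679 FPKM and the factor Atf4 99.9 ± 3.49 FPKM. Ddit3, which marks severe endoplasmic reticulum stress, had 2.96 ± 0.203 FPKM. Whether these pathways were active in the cells was not tested.

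Antigen presentation genes reached 1 FPKM in 11 of 15 listed members (73.3%, against 65.1% of all listed protein-coding genes). B2m, the light chain of class I molecules, had 729, 779 and 769 FPKM. The heavy chain H2-D1 had 134, 127 and 141 FPKM and H2-K1 4.77, 5.37 and 6.23 FPKM, a ratio of means of 24.6. Class I genes are near-identical to each other and differ between mouse strains, so these values are uncertain. The peptide transporter subunits Tap1 (3.08 ± 0.115 FPKM) and Tap2 (3.49 ± 0.418 FPKM) were low. Cd274, the PD-L1 gene, had 0.683, 0.652 and 0.324 FPKM and the class II factor Ciita 0.014 FPKM, while Cd47, a signal against phagocytosis, had 37.3 ± 1.01 FPKM. Interferon-stimulated genes reached 1 FPKM in 9 of 17 listed members (52.9%), a share below that 65.1%. Ifi27 (23.6 ± 1.47 FPKM) and Bst2 (20.5 ± 1.91 FPKM) were highest.

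Immediate early genes reached 1 FPKM in 14 of 16 listed members (87.5%, against 65.1% of all listed protein-coding genes). These 14 ranged from Klf4 and Atf3 near 1.6 FPKM to Ier3 at 106, 92.3 and 111 FPKM. Fosl1 and Klf6 (31.8 ± 1.31 FPKM) followed Ier3. Of long noncoding RNAs, the nuclear RNA Malat1 had 49.2, 54.4 and 49 FPKM and Neat1 27.3 ± 1.3 FPKM.

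Across genes, promoter composition differed by level class. Among the 9514 protein-coding genes with a single RefSeq window (62.0% of those listed, so the rest are not described), the median ratio of observed to expected CpG was 0.30 for genes at 0, 0.554 between 0.1 and 1 FPKM, 0.776 between 1 and 10 FPKM and 0.857 at 100 FPKM and over. The largest steps lay on either side of the class between 0.1 and 1 FPKM. TATAAA within 40 to 15 bases before the start was found in 0.843% of genes between 1 and 10 FPKM, in 1.10% between 10 and 100 FPKM and in 4.22% at 100 FPKM and over, which is 10 of 237 genes. It was found in 3.68% of genes above 0 and below 0.1 FPKM, and in 1.99% of all windows. The share was therefore lowest in the middle classes. The median exon length over all listed protein-coding genes was 4978 bases between 1 and 10 FPKM and 2726 at 100 FPKM and over. It was 2818 bases for genes at 0 and 3429 between 0.1 and 1 FPKM, so it was highest in a middle class. These are descriptions across genes, which are not independent replicates, and FPKM itself divides by length.

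**Figure D4:**
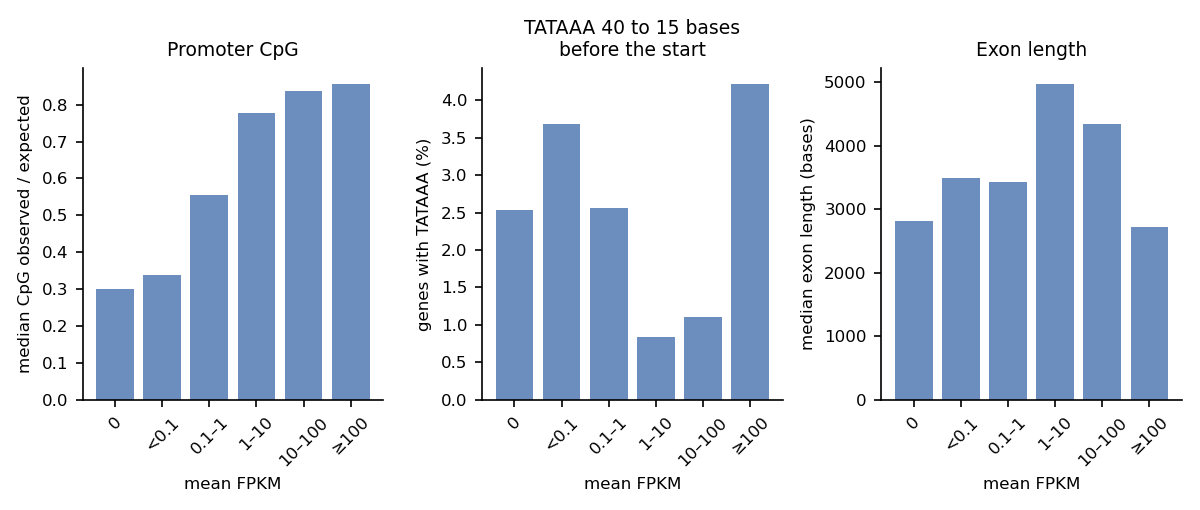
Promoter CpG ratio, share of genes with TATAAA before the start, and median exon length of protein-coding genes in 6 classes of mean FPKM. The CpG ratio climbs from 0.30 at 0 FPKM to 0.857 at 100 FPKM and over, while the TATAAA share is lowest between 1 and 10 FPKM.

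The 3 libraries were alike but differed by more than counting error. Over the 5010 genes that averaged 10 FPKM or more the median CV was 4.44%, and 475 of them (9.48%) had a CV over 10%. By level, the median CV was 8.51% between 1 and 5 FPKM and 3.92% at 500 FPKM and over, where read counting alone would give 6.12% and 0.501%. The chi-square per degree of freedom was 4.46 for replicates 1 and 2, 3.38 for 1 and 3, and 10.5 for 2 and 3, on genes with at least 100 reads. No pair of libraries agreed within counting error, and each was counted as labelled, as 1 replicate. Without replicate 2 the median CV over the other 2 libraries was 2.87%. Differences beyond 1.5-fold were found for 33 of the 5010 genes between replicates 2 and 3, and for 14 and 8 in the other pairs.

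The difference between replicates 2 and 3 moved with base composition. The 4860 protein-coding genes at 10 FPKM and over were put in 5 classes of equal size by transcript GC content. In the lowest class the median log2 ratio to the mean of the 3 libraries was 0.06 in replicate 2 and -0.06 in replicate 3. In the highest class it was -0.10 in replicate 2 and 0.09 in replicate 3. Across these genes the ratio and GC content had a Pearson r of -0.67 in replicate 2, 0.66 in replicate 3 and 0.14 in replicate 1. This is a description over genes that share their library. Each ratio is taken to the mean of the same 3 libraries, so the opposite signs in replicates 2 and 3 are not separate results. They cannot show which of these libraries is the unusual one. Short genes moved the same way as GC-rich ones, with a median of -0.06 in replicate 2 for the shortest of 5 classes by exon length. Ribosomal protein genes had a median of -0.11 in replicate 2 and 0.10 in replicate 3, and protein-coding mitochondrial genes 0.10 and -0.11. The part of base composition in the spread of single genes was not tested.

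The most variable named genes at 10 FPKM and over were short. mt-Nd3 had the highest CV, 33.2%, with 23.1, 38.8 and 22.3 FPKM. Small RNA genes followed among the 10 highest, namely Mir763, Rnu73b, Snord17, Snord19 and Mir1898, all with short exons. The other 4 were the RNase P family gene Rpp25l (12.4, 7.69 and 14.5 FPKM), the mitochondrial inner membrane gene Romo1 (13.8, 9.56 and 17.4 FPKM), and the mitochondrial ribosome genes Mrpl54 (23.5, 14.5 and 23.8 FPKM) and Mrpl14 (12.5, 8.65 and 14.2 FPKM). Each of these 4 was lowest in replicate 2 and highest in replicate 3. Of the small RNA genes, Mir1898 had only 23, 25 and 16 reads in replicates 1, 2 and 3. Counting error is large at so few reads. Its part in the spread of the small RNA genes was not tested. Of the 50 most variable protein-coding genes replicate 2 was lowest in 46 and replicate 3 highest in 46. Their median transcript GC was 56.7% against 49.2% for all protein-coding genes at 10 FPKM, and their median exon length 1344 bases against 4214. Mif, Tmsb10, Krt19 and Snai1 showed the same order of libraries, with CVs of 16.5%, 21.8%, 19.3% and 17.5%.

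The least variable genes were Lap3, a peptidase (43.9, 44 and 43.9 FPKM), Trim27 (13.5, 13.6 and 13.6 FPKM), and Pqlc3, Mtmr9, Cwc15, Uba2, Vrk1, Elac2, Ino80c and Pdcd6, all with a CV of at most 0.218%. They are the extreme of 5010 genes over 3 libraries, and their order describes these libraries only.

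**Figure D5:**
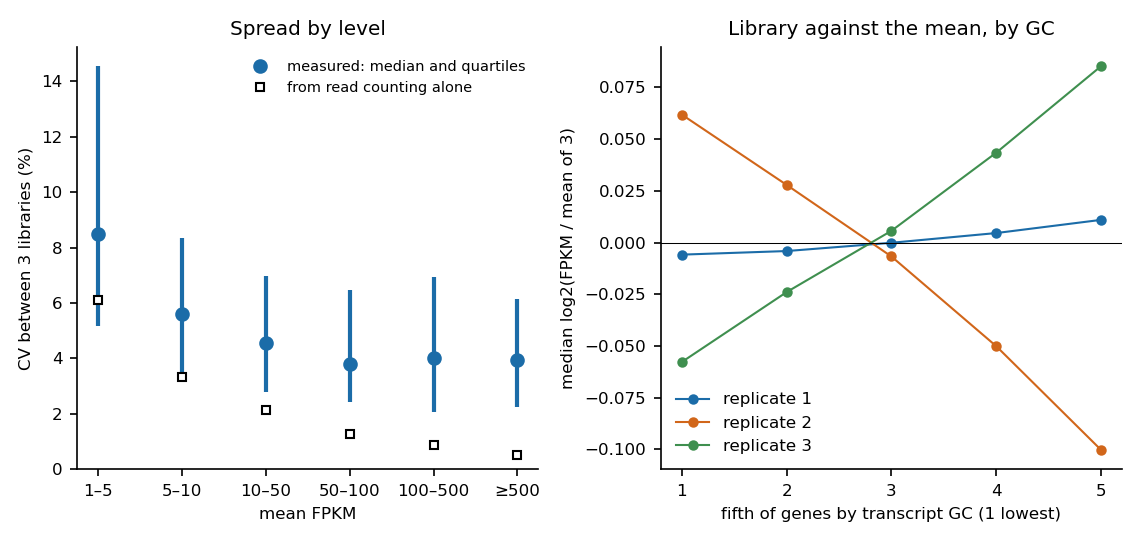
Left, CV between the 3 libraries by level class (points are medians, bars quartiles) with the CV that read counting alone would give (squares). Right, median log2 ratio of each library to the mean of 3 in 5 classes of transcript GC, running from 0.06 to -0.10 in replicate 2 and from -0.06 to 0.09 in replicate 3.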

How the data were processed

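RNA was extracted with Trizol and sequenced by a standard Illumina protocol, per the labels. The authors deposited 1 table whose values have the form of FPKM; the unit was read from the values. The submitters' processing notes name CASAVA, Bowtie, Bowtie2, TopHat, TopHat2 2.0.12, HTSeq 0.6.0 and the build mm10, with no roles. Not given in the sources used here: annotation release, strand setting and how genes came to be listed. Reads of a gene and an overlapping antisense gene therefore cannot be separated. Of 23644 Ensembl IDs 23587 matched a symbol in GENCODE M21 (GRCm38) and 12 share one. FPKM times exon length gave whole reads (within 0.02) for 91.9% to 92.0% of values up to 500 reads, hence the read totals, which are approximate. The calculation was tested on simulated data.

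Means, SDs and CVs were computed over 3 libraries in Python 3.11.15 (pandas 2.3.3, numpy 2.4.6), with figures by matplotlib 3.10.9. A gene counted as expressed at a mean of 1 FPKM. Named genes are the 30 most abundant, members of 35 gene lists, and the 10 highest and 10 lowest CVs at 10 FPKM and over; from the lists only some are described, a few members are not reported here, and gene pairs for ratios were picked after values were seen. The members and lists were chosen with earlier results of these data known. Promoters are from RefSeq (GRCm38.p6), from 250 bases before to 50 after the start. No protein sequence was used here.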

Additional observations from a re-analysis of the deposited data

How the results depend on the processing

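At a threshold of 5 FPKM the number of expressed genes was 7344 instead of 11042. The share of the 100 most abundant genes was 24.4% without mitochondrial genes and 18.6% as a share of recovered reads, against 29.7%. The median CV was 5.72% with genes from 1 FPKM on. It was 2.87% to 5.27% over 2 libraries when a replicate was left out, which is not directly comparable with a CV over 3. The CpG ratio at 100 FPKM and over was 0.850 to 0.854 when a replicate was left out, against 0.857. Of 38 lists, 3 changed their count by over 1.5 times at 0.5 FPKM and 6 at 5 FPKM, among them the epithelial list with 15 genes at 5 FPKM and the basal list with 8 at 0.5 FPKM. No mean of the 483 tabulated genes at 1 FPKM and over moved by more than 0.191% when libraries were rescaled. Factors centred on the same 3 libraries can hardly move their mean, so this small shift does not test whether levels depend on scaling. With 3 libraries, and no counts in the table, low values rest on few reads. No paired analysis was possible because a single group was described and no contrast was made.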

Other observations

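Genes of chromosome 15 with at least 5 FPKM stood high in these cells, and the chromosome was picked because its median was the highest. Among protein-coding genes with at least 5 FPKM the median was 22.0 FPKM on chromosome 15 (316 genes) and 15.1 FPKM on all autosomes and the X chromosome, and the next highest among the autosomes and X was 18 with 18.3 FPKM. Per library the chromosome 15 median was 22.3, 21.7 and 22.2 FPKM. Of its genes 30 reached 100 FPKM, Lgals1, Krt8 and Krt18 among them, against 46 on chromosome 11, which has 673 genes at 5 FPKM. At or above 1 FPKM were 68.9% of listed protein-coding genes on chromosome 15. Chromosomes 8 (70.7%), 19 (69.6%) and 16 (69.3%) had larger shares. Copy number and gene content were not tested.

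On chromosome 4, Mtap (chr4:89137122-89181081, GRCm38), which encodes an enzyme of methionine salvage, had 289, 295 and 286 FPKM, rank 110 of all listed genes. Its neighbours, chosen like it after their values were seen, were far lower. Klhl9 (chr4:88718292-88722465) had 15.1, 15.7 and 15.8 FPKM, the microRNA gene Mir31 33.7, 25.5 and 34.3 FPKM, and Dmrta1 (chr4:89679436-89694772) 0.00425 FPKM from 1 read. Ifnb1, the interferon beta gene, was 0 in all 3 libraries, which allows up to 0.225 FPKM. Cdkn2a and Cdkn2b were not analysed here.

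Replication-dependent histone genes, whose messages mostly lack a poly(A) tail, reached 1 FPKM in 6 of 49 listed genes. That is 12.2%, against 65.1% of all listed protein-coding genes. Hist1h2bc was highest at 9.2 ± 0.657 FPKM. The part of RNA selection before sequencing in these values was not tested. Of 116 listed olfactory receptor genes 2 reached 1 FPKM, against 46.7% of all listed genes. A value of 0 in all 3 libraries was found for 20 of the 116 (17.2%), against 8.26% of all listed genes.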
